A study of Mus musculus with 12 samples.

Results

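The 10 genes described here encode central parts of the antigen presentation machinery and were chosen by name from the 24060 genes listed for each tumor. H2-K1, H2-D1, B2m, Tap1, Tapbp and Nlrc5 belong to the class I route, and H2-Aa, H2-Ab1, Cd74 and Ciita to the class II route. Their RNA was measured in 12 rhabdoid tumors (RTs). All of them arose in mice of 1 genotype, P0-CreC;Smarcb1 flox/flox, on the FVB/N background, in which a Cre transgene under the P0 promoter acts in neural crest cells from early embryonic stages and removes Smarcb1, a core subunit of the SWI/SNF chromatin remodeling complex. Of the 12 RTs, 4 were labeled retro-orbital, 3 cheek, 3 meninges, 1 vestibular nerve and 1 trigeminal nerve, and each was dissected and frozen without sorting, so that its RNA comes from tumor cells and from any host cell in the piece. The age of each animal, the molecular subgroup of each RT and a non-tumor control were not used here.

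Class I molecules present peptides made inside the cell to cytotoxic T cells and are found on nearly all nucleated cells. Class II molecules present peptides from ingested material to helper T cells and are made mainly by dendritic cells, macrophages and B cells, and by other cells after exposure to interferon gamma. In the brain and nerves both routes are normally low and rise in microglia and macrophages during inflammation. NLRC5 and CIITA are the related coactivators that drive transcription of the class I and class II genes, and both are themselves induced by interferon gamma.

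Promoters were looked at because NLRC5 and CIITA do not bind DNA themselves and are recruited to a conserved module in the promoters of their target genes, which holds an X2 element related to a cyclic AMP response element and a Y element with an inverted CCAAT. RefSeq promoters on GRCm38.p6, running from 250 bases before to 50 bases after the start of the gene, were found for 6 of the 10 genes (B2m, Tapbp, H2-K1, Tap1, H2-Aa and H2-D1) and were not at hand for Nlrc5, H2-Ab1, Cd74 and Ciita. The start is that of RefSeq, and the windows of Tapbp (chr17:33919228-33919527) and H2-D1 (chr17:35262844-35263143) lie inside the gene as GENCODE draws it. The stretches of 4 of them are shown 5′ to 3′ on the strand of the gene because the motif pair lies closest together there. Capitals mark in each stretch 1 TGACG, or CGTCA for the same motif on the other strand, and the ATTGG nearest to it. Further matches stay in lower case, namely a TGACG that overlaps the marked CGTCA in H2-Aa and a match of ATTGG on the other strand in H2-K1 and in H2-D1.
B2m (chr2:122147584-122147663, + strand): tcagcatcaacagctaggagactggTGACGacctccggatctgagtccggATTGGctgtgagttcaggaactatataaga
H2-K1 (chr17:34000334-34000413, - strand): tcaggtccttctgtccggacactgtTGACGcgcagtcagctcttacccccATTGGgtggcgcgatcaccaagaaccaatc
H2-D1 (chr17:35262968-35263047, + strand): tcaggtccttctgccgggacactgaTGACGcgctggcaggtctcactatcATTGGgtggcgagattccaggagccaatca
H2-Aa (chr17:34287842-34287919, - strand): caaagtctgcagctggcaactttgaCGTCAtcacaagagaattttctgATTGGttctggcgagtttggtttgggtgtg
Between the marked motifs lie 20 bases in B2m, H2-K1 and H2-D1 and 18 bases in H2-Aa. ATTGG, counted on both strands, was found in 6 of the 6 promoters and in 37.4% of all 32851 promoters of the same length. TGACG, which was added to the search after the sequences had been seen, was found in 5 of the 6, the exception being Tapbp, and in 20.8% of all promoters, and both motifs together in 5 of the 6 and in 7.73% of all. The core of an interferon-stimulated response element, GAAA followed after any 2 bases by GAAA, was found in 1 of the 6 promoters, that of B2m, against 3.44% of all. These matches describe the letters of a window and not occupancy.

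All 10 genes are protein coding. In GENCODE M21 on GRCm38, the build also called mm10, 6 of them lie within the major histocompatibility complex or beside it on chromosome 17, namely Tapbp (chr17:33915899-33929292), H2-K1 (chr17:33996017-34000347), Tap1 (chr17:34187553-34197225), H2-Ab1 (chr17:34257689-34269419), H2-Aa (chr17:34282744-34287823) and H2-D1 (chr17:35262730-35267499). B2m is at chr2:122147686-122153083, Nlrc5 at chr8:94434356-94527272, Ciita at chr16:10480059-10528418 and Cd74 at chr18:60803848-60812652.

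Levels are given in RPKM, fragments scaled to the length of the transcript and to the depth of the library, as deposited. Library depth, estimated from the spacing of low values, ran from 13206179 fragments (cheek 3) to 57128440 fragments (retro-orbital 3), at which a share of 0.376 to 0.459 of the low values of genes with a single annotated transcript lay within 0.02 of a whole fragment. Between 12575 and 14528 genes per tumor reached 1 RPKM. Smarcb1, the targeted gene, was at 2.90, 4.64, 4.72 and 6.0 RPKM in retro-orbital 1 to 4, at 4.58, 3.68 and 3.20 RPKM in cheek 1 to 3, at 5.15, 4.73 and 6.31 RPKM in meninges 1 to 3, and at 1.70 and 2.94 RPKM in the vestibular and trigeminal nerve RTs. No unrecombined tissue was analysed here to set these against. Some RTs share the first part of their identifier, cheek 2 with cheek 3, cheek 1 with meninges 1, and retro-orbital 3 with the trigeminal nerve RT. Whether such a pair came from 1 animal is not stated. Cheek 2 and cheek 3 resembled each other more closely by Pearson correlation of all genes (0.9889) than any other pair of a location. Their fragment numbers differed well beyond sampling noise (chi-square of 23.4 per degree of freedom over 524 genes). That sets the libraries apart but cannot show separate tumors or animals. In the main tests the pair was counted as separate RTs, and their independence is not known.

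B2m encodes beta-2 microglobulin, the light chain that every class I molecule needs. It was at 2179, 1114, 2631 and 3159 RPKM in retro-orbital 1 to 4, at 1550, 648.7 and 670.0 RPKM in cheek 1 to 3, at 1572, 2931 and 4413 RPKM in meninges 1 to 3, at 911 RPKM in the vestibular nerve RT and at 4620 RPKM in the trigeminal nerve RT. Even in the lowest of the 12, 99.7% of all genes had a lower RPKM. The means were 2271 ± 869 RPKM in retro-orbital (SD, n = 4), 956 ± 514 in cheek (SD, n = 3) and 2972 ± 1421 in meninges RTs (SD, n = 3), and each location overlapped its neighbor apart from meninges over cheek.

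H2-K1, a classical class I heavy chain, was at 245, 112, 551 and 649.8 RPKM in retro-orbital 1 to 4, at 293, 52.2 and 49.8 RPKM in cheek 1 to 3, at 363, 415 and 617 RPKM in meninges 1 to 3, at 155 RPKM in the vestibular and at 692 RPKM in the trigeminal nerve RT. H2-D1, the other classical heavy chain measured, was at 166, 255, 647 and 769.9 RPKM in the retro-orbital, at 199, 56.9 and 63.2 RPKM in the cheek, at 207, 483 and 557 RPKM in the meninges, and at 157 and 575 RPKM in the vestibular and trigeminal nerve RTs. In both genes the low end was formed by cheek 2 and cheek 3, about 5.6 times (H2-K1) and 3.15 times (H2-D1) under cheek 1 when the higher of the pair is taken.

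Tap1, a subunit of the transporter that carries peptides into the endoplasmic reticulum, was at 18.1, 5.55, 33.0 and 30.4 RPKM in the retro-orbital, 20.2, 5.40 and 3.75 RPKM in the cheek, 29.0, 24.6 and 41.2 RPKM in the meninges, 16.7 RPKM in the vestibular and 57.8 RPKM in the trigeminal nerve RT. Tapbp, which encodes tapasin, the chaperone that holds class I molecules at that transporter, was at 111, 60.3, 107 and 145 RPKM in the retro-orbital, 88.4, 90.4 and 77.2 RPKM in the cheek, 149.8, 108 and 126 RPKM in the meninges, and 99.2 and 116 RPKM in the vestibular and trigeminal nerve RTs. Tapbp was the steadiest of the 10, with a highest value 2.48 times the lowest, and its lowest RT was retro-orbital 2 rather than a cheek tumor. Nlrc5 ran from 2.14 to 11.5 RPKM in the retro-orbital RTs, reached 4.65, 0.834 and 0.621 RPKM in cheek 1 to 3, 6.69, 8.45 and 13.3 RPKM in meninges 1 to 3, and 2.35 and 7.09 RPKM in the vestibular and trigeminal nerve RTs. Thus the coactivator, like the heavy chains and the transporter, was lowest in cheek 2 and cheek 3.

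Cd74 encodes the invariant chain, which fills the groove of new class II molecules and guides them to the endosome. Its level was 363, 68.3, 682 and 969.8 RPKM in retro-orbital 1 to 4, 154, 4.25 and 5.30 RPKM in cheek 1 to 3, 246, 1032 and 532 RPKM in meninges 1 to 3, 132 RPKM in the vestibular and 218 RPKM in the trigeminal nerve RT. The highest RT was thus 243 times the lowest, and in cheek 2 the gene stood above only 61.5% of all genes, against 99.9% in its highest tumor.

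H2-Aa and H2-Ab1 encode the alpha and beta chains of the class II molecule I-A. H2-Aa was at 193, 58.5, 447 and 931 RPKM in the retro-orbital, 76.8, 2.55 and 3.90 RPKM in the cheek, 111, 748.5 and 373 RPKM in the meninges, and 98.2 and 135 RPKM in the vestibular and trigeminal nerve RTs, a 365-fold span. H2-Ab1 was at 274, 54.3, 548 and 790.0 RPKM in the retro-orbital, 104, 16.4 and 14.0 RPKM in the cheek, 157, 719 and 426 RPKM in the meninges, and 111 and 129.7 RPKM in the vestibular and trigeminal nerve RTs, a 56.6-fold span. The chains of the same molecule were close in most RTs, with a ratio of H2-Aa to H2-Ab1 between 0.706 and 1.18, but not in cheek 2 and cheek 3, where it was 0.156 and 0.279. The low H2-Aa values there rested on 89 and 55 fragments, at the smallest gene length that makes the 12 values whole numbers.

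Ciita, the class II coactivator, was the lowest of the 10 throughout, at 1.89, 0.639, 0.864 and 10.6 RPKM in the retro-orbital, 1.04, 0.318 and 0.226 RPKM in the cheek, 1.59, 6.13 and 4.44 RPKM in the meninges, and 2.22 and 0.846 RPKM in the vestibular and trigeminal nerve RTs. These values rested on 17 to 2488 fragments. Retro-orbital 3 and the trigeminal nerve RT had less than 1 RPKM of Ciita beside 682 and 218 RPKM of Cd74, whereas the vestibular nerve RT had 2.22 RPKM of Ciita and 132 RPKM of Cd74. Ciita reached 1 RPKM in 7 of the 12 RTs and Nlrc5 in 10 of them, and the other 8 genes did so in all.

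**Figure D1:**
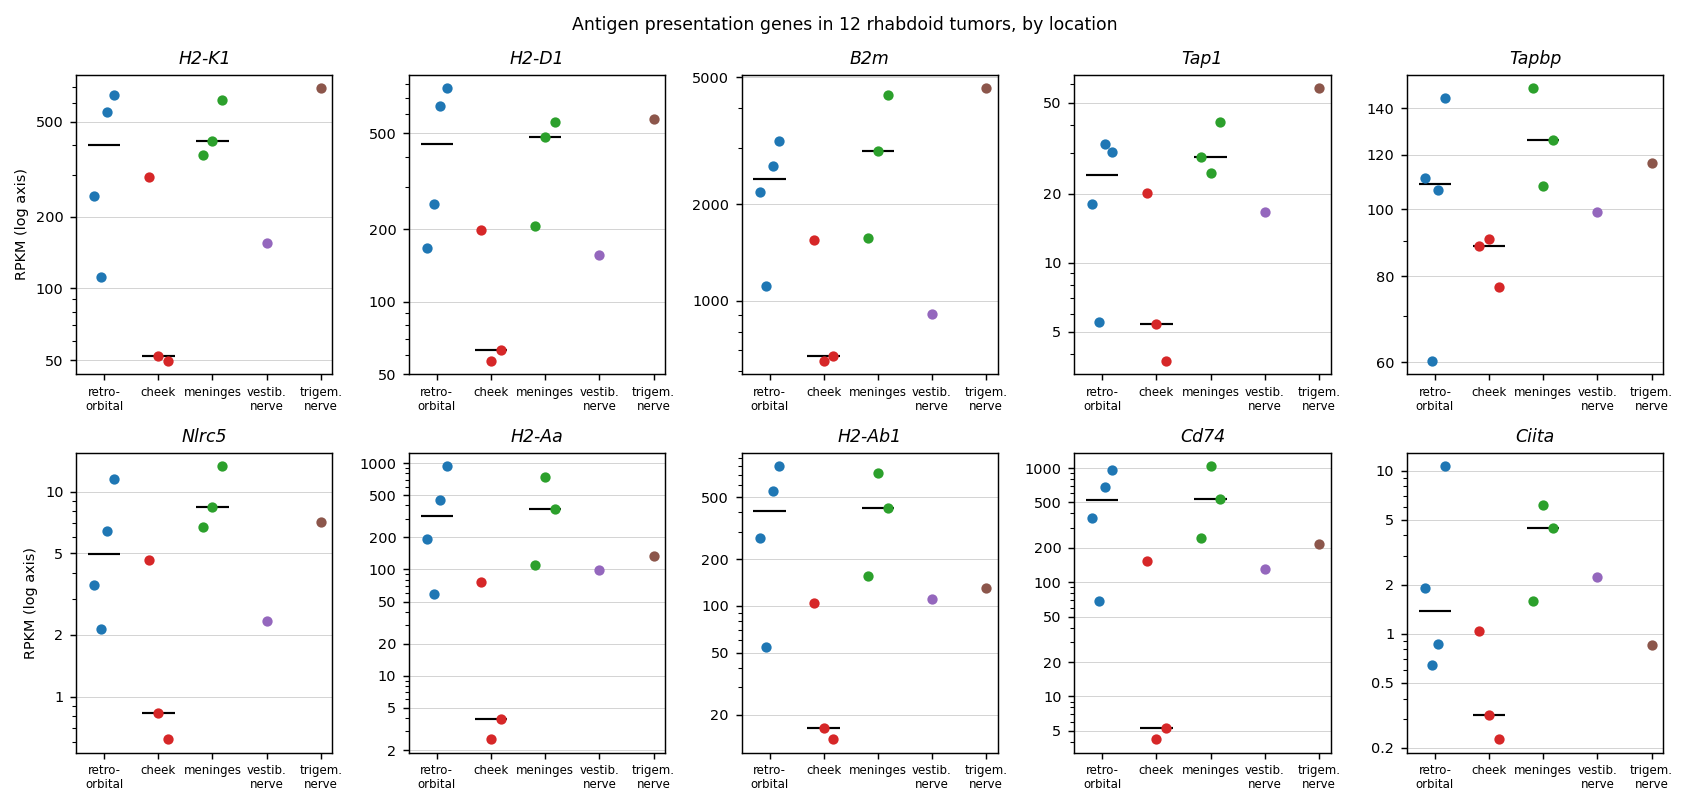
RPKM of the 10 genes (log axis, each panel with its own range) in the 12 RTs, 1 point per tumor, by location, with a bar at the median of each location of 3 or more tumors. Cheek 2 and cheek 3 are the lowest points in every panel but that of Tapbp, and cheek 1 lies within the range of the retro-orbital RTs in all 10 panels.

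On the log2(RPKM + 1) scale the class II genes Cd74, H2-Aa and H2-Ab1 were spread more widely across the 12 RTs than the class I genes, and Ciita was not. The standard deviation of log2(RPKM + 1) was 2.54 for Cd74 and for H2-Aa, wider than for 99.7% of the 15043 genes at or above 1 RPKM in at least 3 RTs, and 1.92 for H2-Ab1. It was 1.35 for H2-K1, 1.26 for H2-D1, 1.16 for Tap1, 1.02 for Nlrc5, 1.0 for Ciita, 0.989 for B2m and 0.368 for Tapbp, beside a median of 0.478 over all those genes. With an added 1 RPKM this scale understates the spread of the low genes Ciita and Nlrc5. As a ratio of highest to lowest RPKM, Ciita spanned 46.9-fold, more than any class I gene, with Nlrc5 at 21.4-fold and Tap1 at 15.4-fold next.

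The genes moved together. As a description over the same 12 RTs, Pearson correlations on log2(RPKM + 1) had a median of 0.90 (0.50 to 0.96) over the 15 pairs of class I genes, 0.89 (0.75 to 0.99) over the 6 pairs of class II genes and 0.83 (0.53 to 0.92) over the 24 pairs between the classes. Cd74 and H2-Aa gave the highest value and H2-D1 with Tapbp the lowest. All pairs share the same libraries and the same pair of low cheek tumors.

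**Figure D2:**
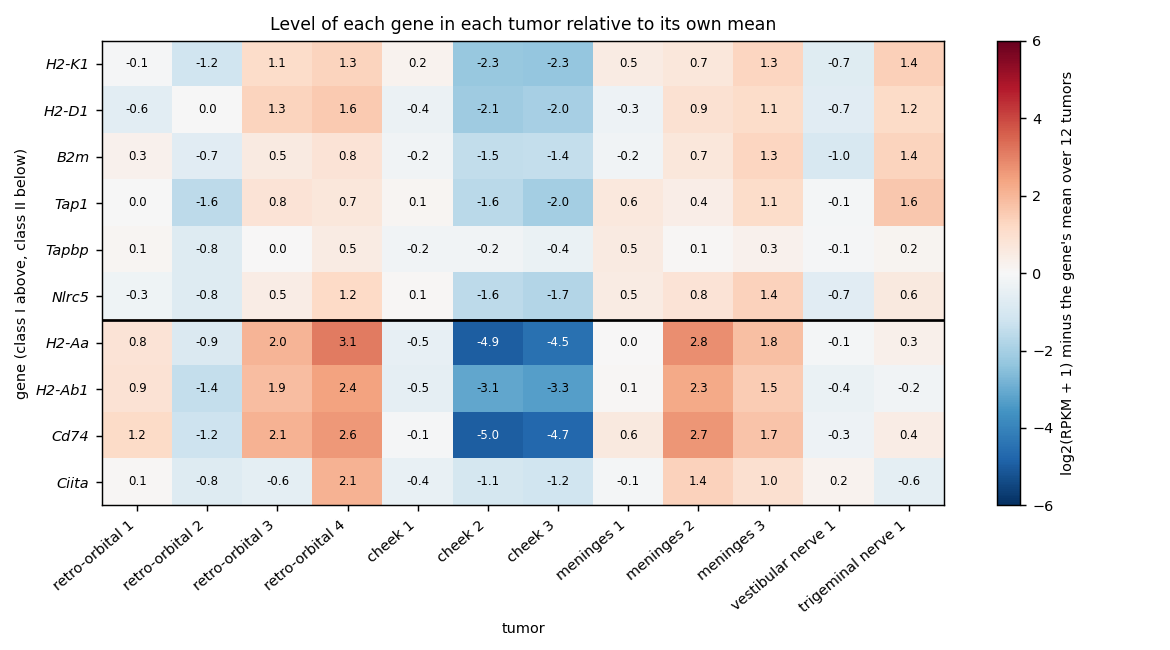
Deviation of log2(RPKM + 1) from the mean of each gene over 12 RTs, in log2 units, with tumors as columns and genes as lines, class I above the black line and class II below it. Cheek 2 and cheek 3 carry the deepest blue cells, in H2-Aa and Cd74, and retro-orbital 4 and meninges 2 are the highest columns for H2-Aa, H2-Ab1 and Cd74.

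To ask whether levels differed by location, limma was fitted to log2(RPKM + 1) of 14745 genes in the 10 RTs of the retro-orbital, cheek and meninges groups. Cheek RTs had the lowest mean in 10 of the 10 genes and meninges RTs the highest in 9 of them, H2-D1 being the exception, but none of the 10 passed the moderated F test over the 3 locations after Benjamini-Hochberg adjustment over all genes, at which 6 genes or 0.0407% were called. The adjusted p of the F test ran from 0.222 (H2-Aa) to 0.492 (Tapbp). Without adjustment 7 of the 10 had p under 0.05, as had 2110 of the 14745 genes (14.3%).

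Against the retro-orbital RTs, the cheek RTs had a lower mean on the log2 scale for all 10 genes, and H2-Aa, Cd74 and H2-Ab1 differed most. The difference was -4.57 for H2-Aa (SE 1.23, limma adjusted p = 0.257), -4.38 for Cd74 (SE 1.26, adjusted p = 0.273) and -3.24 for H2-Ab1 (SE 0.999, adjusted p = 0.294). H2-D1 differed by -2.08 (SE 0.65, adjusted p = 0.296), H2-K1 by -1.77, B2m by -1.27, Nlrc5 by -1.23, Tap1 by -1.15, Ciita by -1.10 and Tapbp by -0.24. No gene of the 10 passed, where 0.0271% of all genes did, and 6 had an unadjusted p under 0.05, as had 12.0% of all genes. Groups with no overlap, every retro-orbital above every cheek RT, were found in 0 of the 10 genes and in 5.43% of the 14745, and cheek 1 lay within the range of the retro-orbital RTs for all 10.

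The meninges RTs stood above the cheek RTs without overlap in 10 of the 10 genes, where 19.2% of all 14745 genes did so. The margin was narrow for B2m (1572 RPKM in meninges 1, 1550 RPKM in cheek 1) and H2-D1 (207 and 199 RPKM). Those RTs share an identifier. Because the 10 genes moved together, they are not 10 separate observations. Differences were 4.90 for Cd74 (SE 1.35, limma adjusted p = 0.156), 4.83 for H2-Aa (SE 1.32, adjusted p = 0.153), 3.60 for H2-Ab1 (SE 1.07, adjusted p = 0.179), 2.29 for H2-K1 (SE 0.79, adjusted p = 0.218) and 2.08 for H2-D1. They were 1.98 for Nlrc5, 1.88 for Tap1, 1.64 for B2m, 1.64 for Ciita and 0.57 for Tapbp. None of the 10 passed, as against 0.0475% of all genes, and 9 had an unadjusted p under 0.05, as had 17.0% of all genes. The median over all genes was itself shifted by 0.16 in favor of the meninges, a shift that quantile normalization took to -0.01 without turning the sign of any of the 10. With cheek 1 as the only cheek tumor, the differences shrank to 1.73 for Cd74, 2.02 for H2-Aa and 0.63 for H2-K1, still without overlap in 10 genes but beside 28.4% of all genes. Without cheek 1 instead, 4 of the 10 passed, where 3.63% of all genes did, namely Cd74 (6.48, adjusted p = 0.0214), H2-Aa (6.24, adjusted p = 0.0285), H2-K1 (3.13, adjusted p = 0.0449) and Nlrc5 (2.55, adjusted p = 0.0453), and 42.5% of all genes had no overlap in that direction. In that fit H2-Aa (-5.98, adjusted p = 0.0449) and Cd74 (-5.97, adjusted p = 0.0342) also passed between cheek and retro-orbital RTs, where 1.01% of all genes did. Its cheek group is cheek 2 and cheek 3 alone, which share an identifier and may not be independent, so that these p-values cannot stand for cheek RTs in general. With that pair averaged and cheek 1 kept, no gene passed any location test.

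Between meninges and retro-orbital RTs the 10 genes were within 0.75 log2 units of each other in the mean, with differences from 0.00 (H2-D1, 95% interval -1.45 to 1.45) to 0.75 (Nlrc5, -0.51 to 2.01). None passed, where 0.0203% of all genes did, none had an unadjusted p under 0.05 where 9.14% of all genes did, and 0 of the 10 genes lacked overlap in the direction of the meninges, as against 6.82% of all. For Cd74 the interval from -2.32 to 3.35 leaves room for large differences in either direction.

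**Figure D3:**
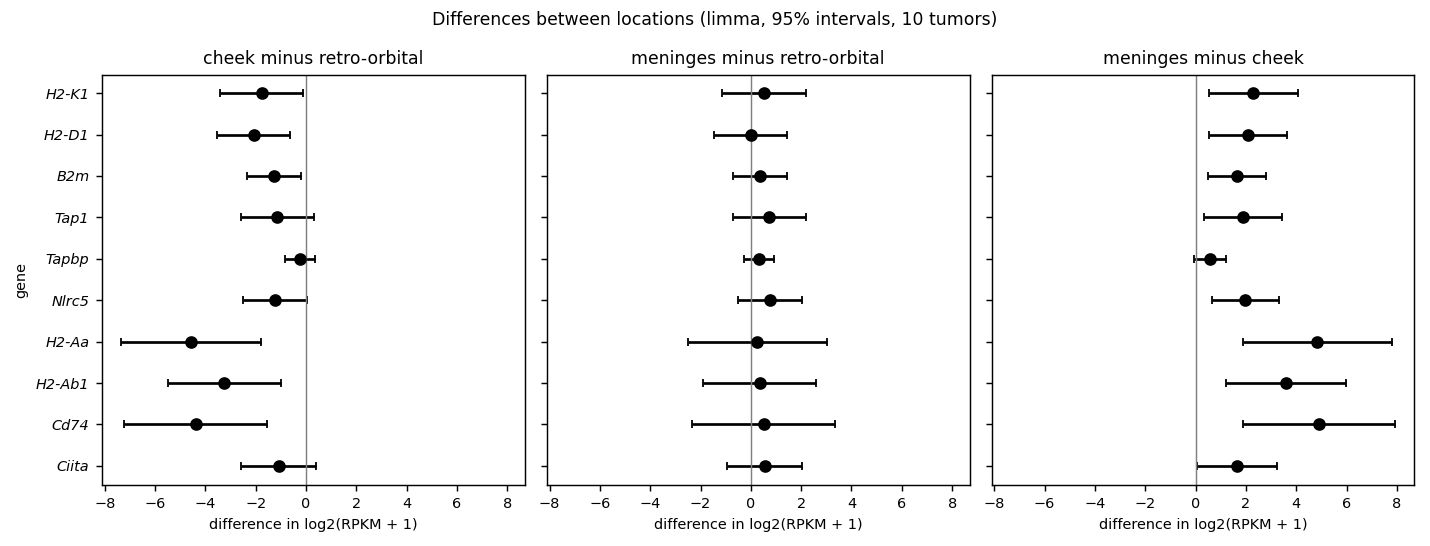
Differences between locations in log2(RPKM + 1) with 95% limma intervals (10 RTs, 3 or 4 per location, not adjusted for the number of genes). The intervals of the class II genes H2-Aa, H2-Ab1 and Cd74 lie furthest from 0 and are widest, and those of meninges minus retro-orbital all include 0.

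With 1 tumor each, the nerve RTs allow no test. The vestibular nerve RT lay within the range of the 10 others in 10 of the 10 genes. The trigeminal nerve RT was the highest of all 12 in 3 of the 10, H2-K1, B2m and Tap1, while its class II genes lay in the middle, with 218 RPKM of Cd74 and 0.846 RPKM of Ciita. Retro-orbital 3, which shares its identifier, had 682 RPKM of Cd74 and 2631 RPKM of B2m. Between RTs that share an identifier the median absolute difference over the 10 genes on the log2(RPKM + 1) scale was 0.56 for this pair (0.385 over all genes), 0.473 for cheek 1 and meninges 1 (0.318 over all genes) and 0.197 for cheek 2 and cheek 3 (0.141 over all genes).

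Levels within a location were not even. Retro-orbital 2 was the lowest retro-orbital RT in 9 of the 10 genes and retro-orbital 4 the highest in 9. Meninges 1 was the lowest meninges RT in 8 of the 10.

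The wider class I pathway was read from 22 further genes, of which 20 were tested and 0 passed any of the 4 tests. An unadjusted F test p under 0.05 was found for 13 of them (65.0%), beside 14.3% of all genes. The median difference of the listed genes was 1.63 between meninges and cheek, beside 0.16 over all genes. Between cheek and retro-orbital RTs it was -1.25, beside -0.02. The 4 with the highest mean were the endoplasmic reticulum chaperones Calr, Pdia3 and Canx and the proteasome activator subunit Psme1. Calr ran from 355 to 821 RPKM and Canx from 132 to 259 RPKM, whereas Psme1 ran from 59.6 RPKM in cheek 3 to 296 RPKM in retro-orbital 4. The immunoproteasome subunits were also lowest in cheek 2 and cheek 3, with Psmb8 at 7.34 and 8.11 RPKM and Psmb9 at 2.51 and 2.54 RPKM there, against 33.1 and 14.8 RPKM in cheek 1 and 71.4 to 92.8 and 28.3 to 48.8 RPKM in the meninges RTs. Psmb10 was at 7.96 and 6.86 RPKM in cheek 2 and cheek 3, at 23.2 RPKM in cheek 1 and at 32.9 to 52.4 RPKM in the meninges RTs. The 3 subunits were named after their values had been seen.

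Of the wider class II pathway, 18 genes were tested and 0 passed any of the 4 tests. The F test p was under 0.05 without adjustment in 6 of them (33.3%), beside 14.3% of all genes. The median difference of the 18 genes was 0.83 between meninges and cheek. The 4 with the highest mean, the endosomal proteases Ctss, Lgmn and Ctsl and the thiol reductase Ifi30, did not share the span of Cd74. Ctss, which trims the invariant chain, was at 263.5 and 221 RPKM in cheek 2 and cheek 3 and at 288 RPKM in cheek 1. Its highest value, 1083 RPKM, was found in retro-orbital 2, the retro-orbital RT lowest in Cd74. Ctsl and Ifi30 were lowest of all RTs in cheek 2 and cheek 3. Ctsl was at 86.1 and 75.1 RPKM there and at 260.5 RPKM in cheek 1. Ifi30 was at 40.4 and 41.7 RPKM there and at 80.55 RPKM in cheek 1. Lgmn went the other way within the cheek, at 217.0, 301.8 and 287.7 RPKM in cheek 1 to 3. Rfx5, a subunit of the complex that binds the X element of class II promoters, ran from 4.75 to 13.4 RPKM and was chosen for mention after its values had been seen.

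Interferon pathway genes numbered 11, of which 10 were tested and 0 passed any of the 4 tests. The F test p was under 0.05 without adjustment in 4 of the 10, beside 14.3% of all genes. All 10 had a higher mean on the log2 scale in meninges than in cheek RTs. The median difference was 0.77, beside 0.16 over all genes. Every meninges RT lay above every cheek RT in 7 of the 10, beside 19.2% of all genes. Between cheek and retro-orbital RTs the median difference was -0.61, beside -0.02. Among the most abundant were Jak1, a kinase of the interferon receptors, Irf9, a transcription factor of the interferon response, and Ifngr1, a chain of the interferon gamma receptor. Ifng itself, the gene of the cytokine, was at or near 0, from 0 to 0.372 RPKM, that is 0 to 8 fragments.

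Leukocyte genes were present in every RT. In bulk tissue fewer cells of a type and less RNA per cell cannot be told apart. The summed RPKM of 4 pan-leukocyte genes (Lcp1, Laptm5, Ptprc and Coro1a) was 98.4 to 241 in the retro-orbital, 65.1 to 77.9 in the cheek, 103 to 208 in the meninges, 41.0 in the vestibular and 93.2 in the trigeminal nerve RTs. In this sum meninges lay above cheek as the 10 genes did. Retro-orbital lay above cheek without overlap too, as in 0 of the 10 genes. Within the cheek the sum was lowest in cheek 2 and highest in cheek 3, and Ptprc alone was at 13.7, 10.1 and 9.81 RPKM in cheek 1 to 3. The sum of 12 macrophage and microglia genes, led by Lyz2, C1qa, C1qb and C1qc, was 1087 to 1920 in cheek and 1465 to 3051 in meninges RTs and highest, at 7462, in retro-orbital 2. Lyz2 made up much of that sum, with 4444 RPKM in retro-orbital 2 and 865 and 935 RPKM in cheek 2 and cheek 3. Of the 12 genes, 10 had a higher mean on the log2 scale in meninges than in cheek RTs, as had 9123 of all 14745 genes tested. Every meninges RT lay above every cheek RT in 7 of the 12, beside 19.2% of all genes. Among the 7 was C1qa, at 288 to 306 RPKM in cheek and 468 to 709.6 RPKM in meninges RTs. Dendritic cell genes, led by Itgax, Zbtb46, Clec9a and Siglech, summed to 2.70 to 50.7 RPKM over the 12, with their lowest sum in retro-orbital 2 and 3.39 to 3.43 in cheek 2 and cheek 3. Within that list Xcr1, named after its values had been seen, went the other way in the cheek, at 0.127, 1.47 and 1.07 RPKM in cheek 1 to 3. B cell genes, of which Cd79b and Cd79a were the highest and Ms4a1 and Pax5 close to 0, summed to 0.516 to 9.78 RPKM, and T and NK cell genes, led by Cd4, Cd3g, Gzmb and Cd3e, to 1.76 to 32.8 RPKM.

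Genes of other cells around the tumors were measured in the same way. Of the astrocyte genes, Gfap was at 228, 65.1 and 259.8 RPKM and Aqp4 at 65.3, 19.7 and 88.5 RPKM in meninges 1 to 3, against 0.589, 0.324 and 0.353 RPKM and 15.4, 0.211 and 0.164 RPKM in cheek 1 to 3. Mbp, a myelin gene, ran from 1.41 RPKM in cheek 1 to 26.8 RPKM in meninges 1. Skeletal muscle genes (Tnnt3, Acta1, Myh4 and Ckm) summed to 12.7 to 346 RPKM in the cheek, 3.77 to 129 RPKM in the retro-orbital and 3.80 to 170 RPKM in the meninges RTs. The highest sums of these locations were those of cheek 2, retro-orbital 4 and meninges 1, which had 4.25, 969.8 and 246 RPKM of Cd74. Endothelial genes (Pecam1, Cdh5, Kdr and Tek) stayed between 14.2 and 56.3 RPKM. Vim, Acta2 and Fabp7, whose proteins the paper stained in RTs of this genotype, summed to 128 to 3057 RPKM. Vim made up most of the lowest and the highest sum, with 114 and 3001 RPKM. Fabp7 was at 44.8, 2.60 and 44.4 RPKM in meninges 1 to 3 and at 0.322 to 1.11 RPKM in the cheek RTs. The sum is not a measure of tumor content. None of the genes of these lists passed any of the 4 location tests. The part of leukocytes, glia or muscle in the levels of the 10 genes was not tested.

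Csf1r, the macrophage growth factor receptor, was lower in every cheek RT than in every retro-orbital and meninges RT, by a narrow margin. The vestibular nerve RT had the lowest Csf1r of the 12, 26.4 RPKM. In the macrophage and microglia list C1qa and C1qb shared the order of Csf1r over these 3 locations, and the other genes did not. Among those, Aif1 and Emr1, named after their values had been seen, were lower in retro-orbital 3 (8.96 and 10.2 RPKM) than in every cheek RT. Within the cheek Csf1r was at 31.5, 45.7 and 47.8 RPKM in cheek 1 to 3. For cheek 2 and cheek 3 the ratio of Cd74 to Csf1r was 0.0928 and 0.111, and in cheek 1 it was 4.89. Retro-orbital 2 had the highest Csf1r of all, 146 RPKM, and a ratio of 0.469, and the other 9 RTs lay between 3.09 and 13.4. For B2m the ratio to Csf1r was lowest in retro-orbital 2, at 7.65, and 14.2 and 14.0 in cheek 2 and cheek 3, with a highest value of 72.4 in meninges 3.

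Correlations with Ptprc and Csf1r were computed over the 12 RTs for all 15042 other genes, by permutation with 100000 resamples and adjustment over those genes. With Ptprc, the leukocyte phosphatase CD45, Pearson r ran from 0.27 (Tapbp) to 0.69 (Ciita, adjusted permutation p = 0.19) and was 0.64 for Cd74 (Spearman rho 0.71), and 0 of the 10 passed, where 1.28% of all genes did with a positive sign. With Csf1r r ran from 0.00 (Tapbp) to 0.52 (H2-D1, rho 0.69, adjusted permutation p = 0.43), and 0 of the 10 passed as against 0.425% of all genes with a positive sign.

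With each RT centered on its location, r with Csf1r ran from -0.53 to 0.38 and with Ptprc from -0.05 to 0.78 over the 10 RTs of the 3 locations, where the smallest p that the 864 exact permutations allow is 0.0012 and none of the 10 passed over all genes. Leaving out retro-orbital 4 and meninges 2, the farthest in Ptprc, took r with Ptprc for Ciita from 0.69 to 0.26. Leaving out retro-orbital 2 and retro-orbital 4, the farthest in Csf1r, gave r with Csf1r from 0.32 to 0.59, and none of the 10 passed in either case.

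**Figure D4:**
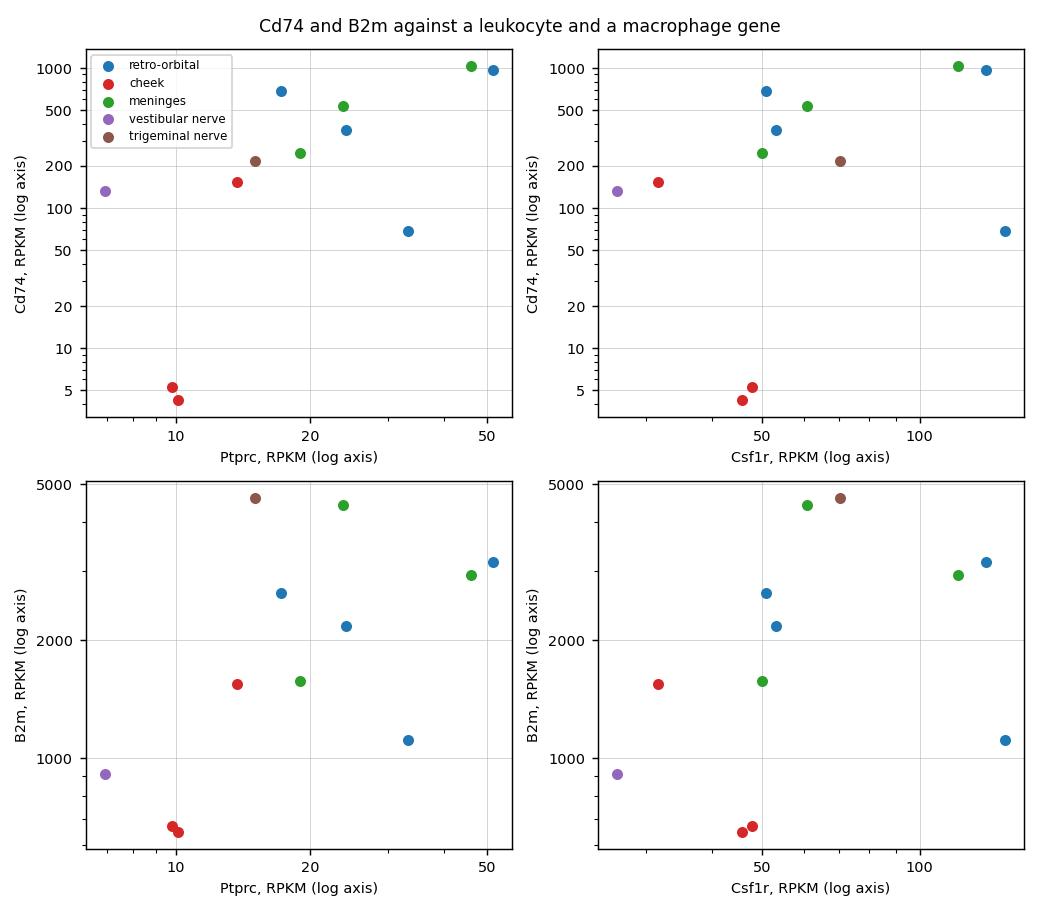
RPKM of Cd74 (top) and B2m (bottom) against Ptprc and Csf1r (log axes), 1 point per tumor, colored by location. Cheek 2 and cheek 3 sit at the bottom of each panel, with more Csf1r than cheek 1, and retro-orbital 2 combines the highest Csf1r with low Cd74 and B2m.

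Beyond the 10, the genes with the most similar pattern to Cd74 by Pearson r over the 12 RTs were Zc3hav1 (0.957), an antiviral zinc finger protein, Sema4d (0.954), Shisa5 (0.953), Dnaaf3 (0.952) and Gbp2 (0.951), an interferon-inducible guanylate-binding protein that ran from 7.74 RPKM in cheek 3 to 161 RPKM in retro-orbital 4. For B2m they were Map3k14 (0.962), the NF-kappa-B inducing kinase, at 4.60 to 26.1 RPKM, Shisa5 (0.932), LOC101243624 (0.930), H2-K2 (0.922) and Ctse (0.921). Reads of H2-K2 can be hard to tell from those of H2-K1, so that its likeness is uncertain.

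Ratios between neighboring H2 genes, chosen after their values had been seen, divided the RTs in another way than location. H2-Eb1, the beta chain of the class II molecule I-E, reached 0.381, 0.331 and 0.323 of the H2-Ab1 level in retro-orbital 1, cheek 1 and meninges 1, and between 0.00745 and 0.0874 of it in the other 9 RTs. In RPKM it was at 104, 34.3 and 50.6 in those 3 tumors, beside 1.09 to 10.4 in the others, although retro-orbital 4 and meninges 2 had the most H2-Aa. H2-DMb2, one of a pair of near copies of a peptide-loading subunit, reached 0.113, 0.0549 and 0.0925 of H2-DMb1 in the same 3 RTs, 0.0301 and 0.0348 in cheek 2 and cheek 3, and 0.59 to 0.94 in the other 7. H2-D1 relative to H2-K1 was 0.679, 0.681 and 0.569 in the same 3 RTs, 2.28 in retro-orbital 2 and 0.832 to 1.27 elsewhere. Cheek 1 and meninges 1 share an identifier, and retro-orbital 1 does not share it. The reads were aligned to the mm10 genome, which is of C57BL/6J, whose H2 alleles differ from those of FVB/N, and the part of alleles in these ratios was not tested.

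**Figure D5:**
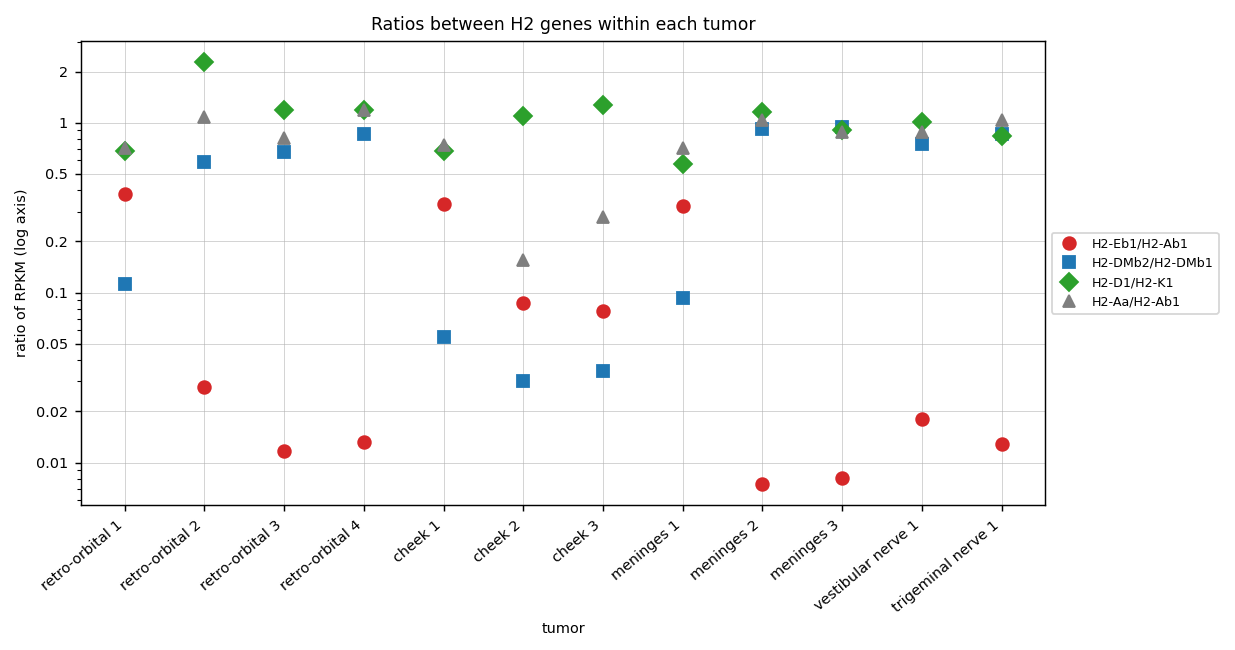
Ratios of RPKM between H2 genes (log axis) in each of the 12 RTs. H2-Eb1 over H2-Ab1 (red) is 0.323 to 0.381 in retro-orbital 1, cheek 1 and meninges 1 and at most 0.0874 in the others, and H2-Aa over H2-Ab1 (gray) falls to 0.156 and 0.279 in cheek 2 and cheek 3 only.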

How the data were processed

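RNA of the 12 RTs was extracted with the RiboPure kit, depleted of ribosomal RNA and made into stranded libraries. The authors mapped the reads to mm10 (STAR), retained unique alignments, counted these by RefSeq gene (HTSeq), and deposited RPKM values, 1 per gene and tumor. The gene lengths behind them are not given in the sources used here. Near-identical H2 genes can lose reads to the demand for unique alignment, and their levels are uncertain. Names of 27 genes had been turned into dates and were never used. Depth was worked out from the spacing of low RPKM values.

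Groups followed the location label. A gene entered the location tests where 3 or more of the 10 tumors reached 1 RPKM, and limma 3.58.1 (R 4.3.3, trend and robust prior) was fitted to log2(RPKM + 1). Python 3.11.15 served for the rest (matplotlib 3.10.9, pandas 2.3.3, scipy 1.17.1, numpy 2.4.6). Adjusted p are Benjamini-Hochberg values, read at 0.05, over all genes tested. Whether the replicates are separate animals is not stated throughout, so p-values measure the spread between these tumors. The members and the lists were chosen with earlier results of these data known. Named genes were the 10 members, in each list the 4 genes of highest mean, genes past a test, the 5 genes most like Cd74 or B2m, and those said to be chosen afterward. Scripts were tested on simulated data. Pseudocount, filter, scaling, prior, block, covariate, averaging and left-out tumors were varied. Some listed genes and a planned correlation are not reported here.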

Additional observations from a re-analysis of the deposited data

How the results depend on the processing

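None of the 10 genes passed a location test under another pseudocount, filter, scaling or prior, and each stayed higher in meninges than in cheek RTs under every setting in which it was tested (Ciita was not tested at the filter of 5 RPKM). Counts of all genes called moved widely from 6 (F test), 4 (cheek against retro-orbital), 3 (meninges against retro-orbital) and 7 (meninges against cheek), in that order below, and the cause was not tested. No filter gave 10, 2, 7 and 18, at least 5 RPKM gave 3, 1 and 1 for the F test and both meninges tests, and no trend or robust prior gave 19, 6 and 22 for the same tests. A pseudocount of 0.1 gave 2 and quantile normalization 13 between meninges and cheek, and median-of-ratios scaling 2 between cheek and retro-orbital RTs. With the identifier series as covariate the F, cheek against retro-orbital and meninges against cheek counts were 0, and with the cheek RTs of 1 identifier averaged all were 0. A random block for shared identifiers, whose correlation came from 3 pairs, gave 2808, 2 and 4238 for the F, cheek against retro-orbital and meninges against cheek tests, with 1 of the 10 genes called by the F test and Tapbp called between meninges and cheek RTs (0.73, limma adjusted p = 0.00583).

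The following 2 settings were chosen after seeing the data. Leaving out cheek 2 and cheek 3 gave 1, 1, 0 and 1 (the lone cheek RT is assumed to vary like the others), and leaving out cheek 1 and meninges 1 gave 49, 77, 0 and 65. Leaving out each tumor gave 0 to 198, 0 to 147, 0 to 41 and 0 to 527, and 0 to 1 of the 10 genes by the F test. The highest counts came without cheek 1, where only cheek 2 and cheek 3 of 1 identifier remained in the cheek group, except 41 without retro-orbital 3.

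Signs turned for Tap1 between cheek and retro-orbital RTs without cheek 2 and cheek 3 (0.15), and otherwise only between meninges and retro-orbital RTs. There the block gave -0.10 for H2-K1, -0.56 for H2-D1, -0.075 for B2m, -0.99 for H2-Aa, -0.50 for H2-Ab1 and -0.76 for Cd74, the covariate -0.26 for H2-D1, -0.15 for H2-Aa and -0.008 for H2-Ab1, and median-of-ratios scaling -0.16 for H2-D1. Leaving out 1 tumor gave -0.40 to 0.44 for H2-D1, -0.46 to 1.007 for H2-Aa, -0.43 to 0.96 for H2-Ab1 and -0.28 to 1.04 for Cd74, each highest without meninges 1. No paired analysis was possible because the labels give no shared replicate numbers and, of the tested locations, only cheek 1 and meninges 1 share an identifier.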
